A study of Mus musculus with 8 samples.

Results

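Cholesterol is made in the cell through the mevalonate pathway, taken up with lipoproteins, and exported or stored when it is in excess. The data here concern 31 genes of that system: 19 enzymes of sterol synthesis, 5 regulators of the transcription factor SREBP and 7 genes of sterol transport, efflux and storage. They were taken by gene symbol from a table of 35275 genes, and each symbol matched 1 row. Messenger RNA was sequenced in 8 libraries of a mouse epicardial cell line (MCEC in the labels), an established culture derived from the cell layer that covers the heart. Of these, 4 came from cells transduced with lentivirus carrying an empty vector (EV) and 4 from cells transduced with lentivirus carrying a guide RNA for CRISPR/Cas9 knockout of Hdac3, which encodes the deacetylase found in NCoR corepressor complexes (KO). All were grown in high-glucose medium with fetal bovine serum, and whether the KO cells were a clone or a pool is not stated in the labels.

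When membrane sterol falls, SCAP escorts SREBP2 (encoded by Srebf2) from the endoplasmic reticulum, and the cleaved factor activates nearly every enzyme of the pathway. INSIG proteins hold SCAP and SREBP back when sterol is plentiful, and Insig1 is itself an SREBP target, so its transcript follows SREBP activity. Oxysterols, which accumulate with excess cholesterol, activate the LXR nuclear receptors. LXR induces the exporters Abca1 and Abcg1, the ubiquitin ligase Mylip, which removes lipoprotein receptors, and Srebf1. Among the 31 genes, 21 are textbook SREBP2 targets (18 enzymes, Insig1, Srebf2 and Stard4) and 4 are LXR targets. NF-Y, which binds the CCAAT box, is a known partner of SREBP at the promoters of synthesis genes.

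To show what the regulated promoters hold, the 250 bases before the RefSeq start site (build GRCm38.p6) are printed for 4 SREBP2 targets that fell, for Ebp, the target that rose most, and for Abca1. Capitals mark CCAAT on either strand (ATTGG where it lies on the other strand) and, in Hmgcs1, the core letters TCACNCCAC of the sterol regulatory element. Hmgcs1 (chr13:119690101-119690350, plus strand) encodes the synthase at the head of the mevalonate pathway, Idi1 (chr13:8885356-8885605, plus strand) the isomerase of isoprenoid units, Msmo1 (chr8:64733579-64733828, minus strand) a sterol methyl oxidase and Insig1 (chr5:28071162-28071411, plus strand) the SREBP retention protein. Ebp (chrX:8193513-8193762, minus strand) encodes a late sterol isomerase and Abca1 (chr4:53159896-53160145, minus strand) the cholesterol exporter.
Hmgcs1: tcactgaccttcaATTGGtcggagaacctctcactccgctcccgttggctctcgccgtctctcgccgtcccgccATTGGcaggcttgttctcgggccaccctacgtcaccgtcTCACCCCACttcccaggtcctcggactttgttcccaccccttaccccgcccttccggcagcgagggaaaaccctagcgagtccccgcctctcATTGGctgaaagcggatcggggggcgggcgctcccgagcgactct
Idi1: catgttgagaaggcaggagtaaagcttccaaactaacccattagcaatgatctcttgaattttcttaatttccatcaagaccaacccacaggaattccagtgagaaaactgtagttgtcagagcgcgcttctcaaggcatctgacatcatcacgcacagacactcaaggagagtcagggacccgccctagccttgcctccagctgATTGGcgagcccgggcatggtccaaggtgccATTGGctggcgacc
Msmo1: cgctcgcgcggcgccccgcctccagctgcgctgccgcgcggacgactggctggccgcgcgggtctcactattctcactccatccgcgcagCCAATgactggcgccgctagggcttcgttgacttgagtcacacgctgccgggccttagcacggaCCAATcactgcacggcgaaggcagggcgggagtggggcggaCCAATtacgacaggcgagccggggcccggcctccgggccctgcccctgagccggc
Insig1: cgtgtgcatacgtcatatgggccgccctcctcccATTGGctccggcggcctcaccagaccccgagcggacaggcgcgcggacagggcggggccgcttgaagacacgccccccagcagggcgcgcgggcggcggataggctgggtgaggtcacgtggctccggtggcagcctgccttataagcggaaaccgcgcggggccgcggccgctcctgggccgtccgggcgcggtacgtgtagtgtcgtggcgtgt
Ebp: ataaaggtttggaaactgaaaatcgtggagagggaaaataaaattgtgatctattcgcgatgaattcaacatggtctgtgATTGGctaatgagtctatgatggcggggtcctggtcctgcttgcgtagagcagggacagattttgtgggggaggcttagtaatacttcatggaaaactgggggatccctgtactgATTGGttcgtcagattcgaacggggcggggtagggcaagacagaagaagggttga
Abca1: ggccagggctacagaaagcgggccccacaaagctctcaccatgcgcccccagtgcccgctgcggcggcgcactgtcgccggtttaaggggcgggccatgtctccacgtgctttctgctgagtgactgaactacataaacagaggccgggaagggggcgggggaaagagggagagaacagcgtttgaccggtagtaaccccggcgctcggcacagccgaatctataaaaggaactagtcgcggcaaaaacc

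RefSeq promoter windows, which run from 250 bases before to 50 after a start site, were used for 25 of the 31 genes (all but Fdps, Fdft1, Sqle, Stard4, Npc1 and Abcg1). Windows on chromosome 18, where Stard4 and Npc1 lie, were left out for the sterol genes. The shares over all genes had no such limit. CCAAT was present on either strand in 16 of the 17 SREBP2 targets with a window, the exception being Acat2. Here and in the gene shares below, a gene counted if any of its windows held a match. Pmvk held a match in its window starting at 89454291 and 0 in the one starting at 89459321. Of the 3 windows of Dhcr7, the one starting at 143829964 held its 2 matches. For comparison, 43.2% of the 9329 tested genes with a window held it, and 41.1% of all 27025 genes with a window. The box was found in all 9 targets that fell and had a window, and in 7 of the 8 that did not fall, so it did not separate the falling from the other targets. Ebp and Hsd17b7, which rose, held 2 and 3 matches. Abca1 held none. The 9 core letters of the sterol regulatory element were found in Hmgcs1 alone, 137 bases before its start, and in 1.44% of tested genes. For the LXR response element of the DR4 type, only a strict pattern was searched. It was a half-site (A or G, then G, then G or T, then TCA) repeated after a gap of 4 bases. Half-sites with other letters were not searched, so the search cannot tell whether the Abca1 window holds a variant of the element. The strict pattern was found in none of the 25 genes and in 26 of 27025 genes. These are matches of letters in short windows and not sites shown to be bound, and no match says only that these letters are not in the window.

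**Figure D1:**
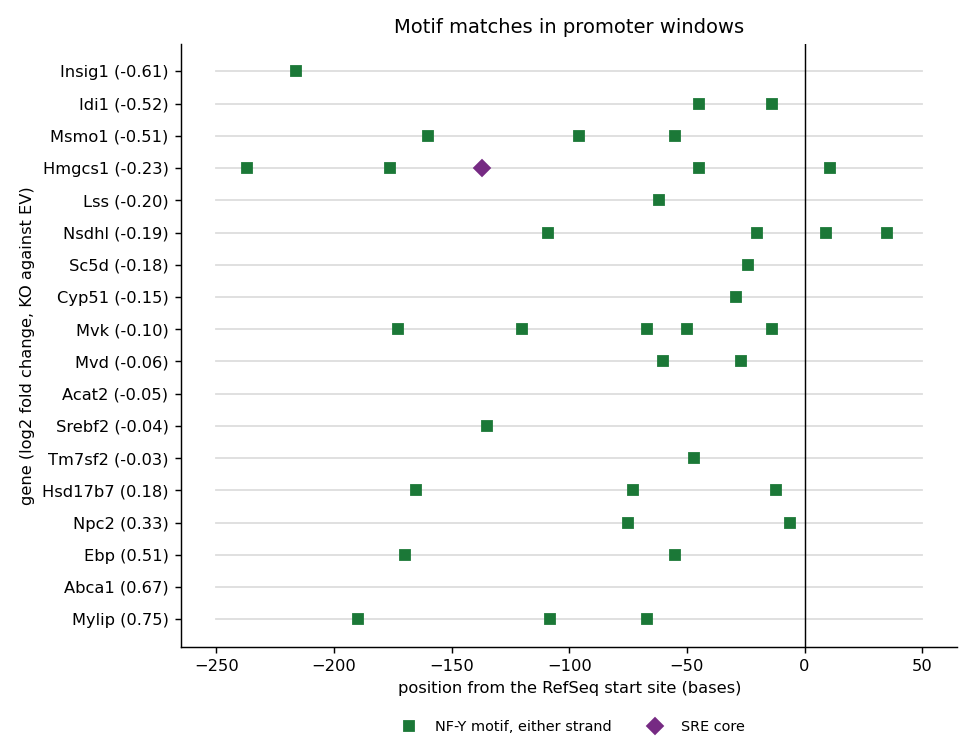
Motif matches by position from the RefSeq start site (bases, start at 0) in the 15 SREBP2 targets with 1 window and in Npc2, Abca1 and Mylip, ordered by log2 fold change (in parentheses). Squares are matches of the NF-Y motif on either strand and the diamond is the sterol regulatory element of Hmgcs1; targets that fell and targets that did not both carry squares.

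The deposited counts summed to between 18063745 and 24564892 per library, at which 3 counts correspond to between 0.122 and 0.166 CPM (read counts relative to library size). Nothing in the labels says that replicates came from separate cultures, so p-values measure only the spread between these libraries, which may be technical. For KO replicate 1 the labels conflict, since its characteristics name empty vector and its title KO. Libraries were grouped by title, and on the first principal component (48.8% of the variance) KO replicate 1 lay at 20.1, beside the other KO libraries (16.3 to 19.3) and apart from EV (−22.3 to −16.9). Hdac3 itself stood at 60.3, 61.4, 64.0 and 61.7 CPM across EV libraries in replicate order and at 63.2, 56.9, 63.9 and 62.6 CPM across KO libraries, and its log2 difference was −0.0050 (SE 0.0528, edgeR adjusted p = 0.956). That level does not check the labels, since an edit can disrupt the protein without lowering the transcript. The epicardial or mesothelial markers Wt1, Tbx18, Upk3b, Lrrn4 and Msln were present in every library. The 14 epicardial and mesothelial markers summed to between 5439 and 5778 CPM in EV and between 5333 and 5473 CPM in KO, with 4 higher and 5 lower of 13 tested, while Aldh1a2 had at most 10 counts in a library. Called lower were Wt1 (−0.37), Tcf21 (−0.74), Upk3b (−0.34), Lrrn4 (−0.30) and Muc16 (−1.17). Called higher were Msln (0.44), Krt8 (1.66), Krt18 (0.54) and Krt19 (1.01). The part of these shifts in the sterol results was not tested. Some markers of other cell types moved with the comparison, and their part in the sterol results was not tested. The 6 macrophage markers summed to between 6.08 and 7.31 CPM in EV and between 9.73 and 11.0 CPM in KO, with Cd68 higher (0.73, edgeR adjusted p = 0.000233) and Adgre1 and Tyrobp at 0 in every library. The 6 endothelial markers summed to between 24.7 and 28.4 CPM in EV and between 18.8 and 20.8 CPM in KO, with Kdr lower (−0.58) and Tek higher (0.42). Kdr and Tek held most of that sum, while Pecam1, Cdh5, Emcn and Tie1 had at most 11 counts in a library. The 6 cardiomyocyte markers summed to between 145 and 157 CPM in EV and between 112 and 129 CPM in KO, most of it Tnnt2, which was lower (−0.33, edgeR adjusted p = 5.67e-05). Myl2, Tnni3 and Actn2 had at most 23 counts in a library. The 14 hepatocyte markers, listed because liver makes much cholesterol, summed to between 11.7 and 14.9 CPM in EV, and to 15.1, 26.3, 26.6 and 12.1 CPM across KO libraries in replicate order, with 2 higher and 1 lower of 6 tested.

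The single comparison of the series asks how transcripts differ between KO and EV. In KO, 10 of the 19 synthesis enzymes were lower, 2 were higher, and the cholesterol exporter Abca1 was higher. Of the 31 genes, 30 passed the filter on low counts. By edgeR's quasi-likelihood test at an adjusted p of 0.05, 12 were lower (40.0% of those tested) and 5 higher (16.7%). Over all 12801 tested genes, 13.4% were lower, 12.6% higher and 26.0% called in either direction. Every KO library lay below every EV library in 12 of the 30 tested sterol genes (40.0%, against 13.9% of all tested genes). Every KO library lay above every EV library in 5 (16.7%, against 12.6%). These were the same genes as those called, from the same libraries, so this adds no separate support. The 21 SREBP2 targets, all of them tested, gave 12 lower, 2 higher and 7 without a call, with a median log2 fold change of −0.18. The 3 tested LXR targets gave 1 higher and 0 lower. Their median of 0.67 is the value of Abca1, while Mylip (0.75) and Srebf1 (−0.13) did not pass. The median over all tested genes was 0.0050. These lists are described by their counts and medians, and the difference between them was not tested. With library totals in place of TMM scaling, 3 of the 31 genes were higher and 16 lower, and all tested genes tilted the same way (1039 higher and 2414 lower, with a median of −0.046). Without KO replicates 2 and 3, which held the most counts of hepatocyte markers, 3 were higher and 6 lower, and the share of all tested genes called fell to 15.02%, while the median of the SREBP2 targets was −0.17. Without KO replicate 1, the library with conflicting labels, 4 were higher and 8 lower, and 20.2% of all tested genes were called.

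**Figure D2:**
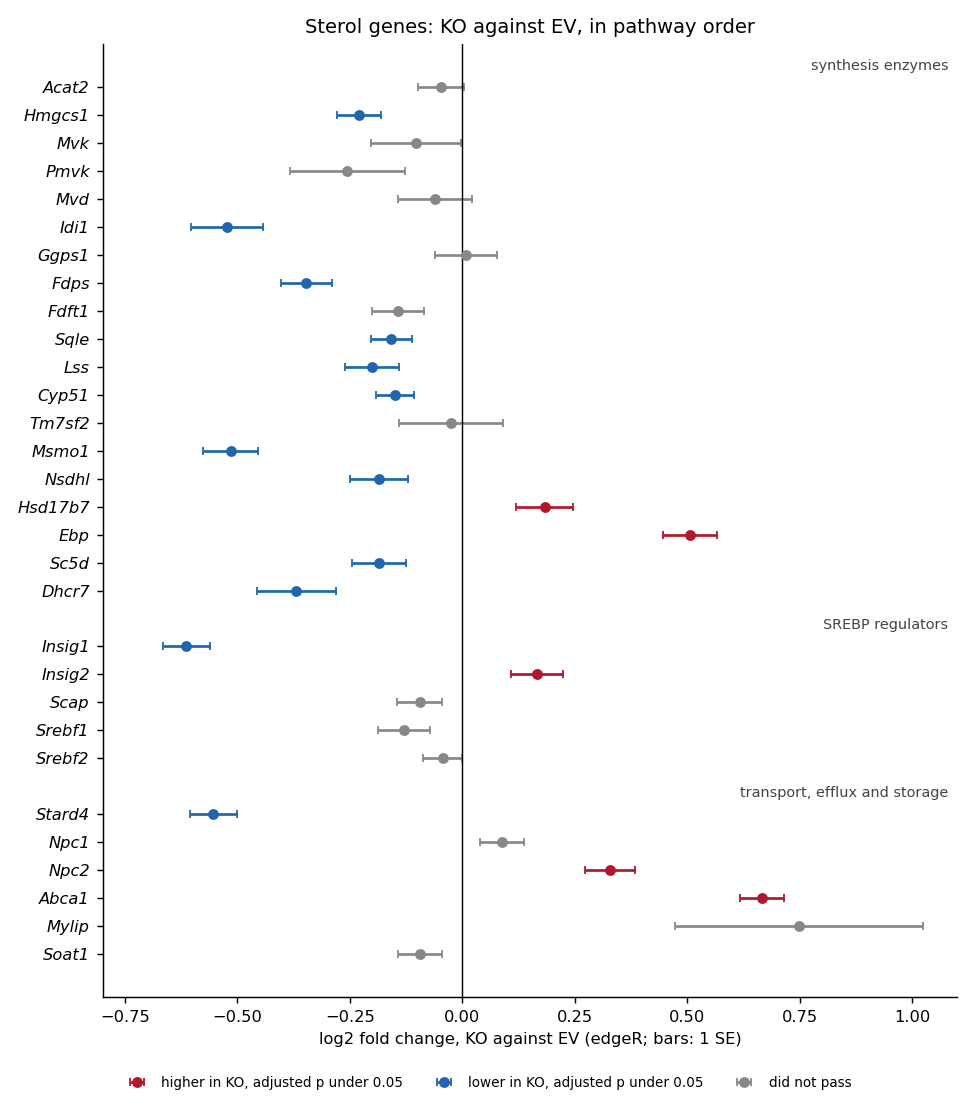
Log2 fold change of each tested sterol gene, KO against EV, in pathway order within 3 groups by role. Points are edgeR estimates with bars of 1 SE, red higher and blue lower at an adjusted p under 0.05, grey not passing; 10 of 19 enzymes lie to the left in blue, while Ebp, Npc2 and Abca1 lie to the right.

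The plot of fold changes shows falls among both early and late enzymes of synthesis, but not at every step. Of the 19 enzymes, 7 had no call and 2 rose. Expressed over the whole set of SREBP2 targets, the summed level was 1492, 1486, 1457 and 1444 CPM across EV libraries in replicate order and 1283, 1289, 1279 and 1331 CPM across KO libraries, so the groups did not overlap. Within each library, the median over targets of the log2 distance from the EV mean lay between −0.043 and 0.049 in EV and between −0.19 and −0.15 in KO. The shift was small and present in each KO library. In RNA from whole cultures, fewer cells with a transcript and less of it per cell cannot be told apart.

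Of the 19 enzymes, 10 fell, 2 rose and 7 did not pass, with a median log2 fold change of −0.16. Thus 52.6% fell and 10.5% rose, against 13.4% and 12.6% of all tested genes. In the mevalonate and isoprenoid steps, Idi1 (ENSMUSG00000058258, mm10 chromosome 13, 8885501 to 8892451), which interconverts the small isoprenoid units, fell most. Idi1 stood at 20.9, 24.0, 23.5 and 24.5 CPM across EV libraries in replicate order and at 16.9, 14.6, 15.9 and 17.2 CPM across KO libraries. Every KO library was below every EV library. Its mean went from 23.2 ± 1.58 to 16.2 ± 1.17 CPM (SD, n = 4 each), and the log2 difference was −0.52 (SE 0.0796, edgeR adjusted p = 6.30e-05). Fdps, the farnesyl diphosphate synthase that joins these units, stood at 74.5, 65.4, 68.3 and 62.3 CPM in EV and at 53.8, 52.4, 52.7 and 53.7 CPM in KO, again without overlap and with a narrow KO group. Its log2 difference, KO minus EV, was −0.35 (SE 0.0571, adjusted p = 0.000149). Hmgcs1, the HMG-CoA synthase, stood at 144, 156, 147 and 153 CPM in EV and at 119, 135, 124 and 134 CPM in KO, a log2 fold change of −0.23 (SE 0.0494, adjusted p = 0.0018).

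The kinases and the decarboxylase that carry mevalonate to the isoprenoid units did not pass, nor did the thiolase before them. Log2 fold changes were −0.10 for Mvk (SE 0.0992), −0.26 for Pmvk (SE 0.127), −0.060 for Mvd (SE 0.0824) and −0.048 for the thiolase Acat2 (SE 0.0507). Pmvk and Mvk had the larger standard errors and lay between 6.69 and 19.7 CPM, and without EV replicate 4 Pmvk passed (−0.34, edgeR adjusted p = 0.0448). Ggps1, which makes geranylgeranyl diphosphate for protein prenylation on a branch off the sterol path, had a log2 fold change of 0.0082 (SE 0.0689). Its sign turned negative with library totals alone (−0.043).

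After farnesyl diphosphate, the pathway runs through squalene to lanosterol. Fdft1, the squalene synthase, had a log2 fold change of −0.14 (SE 0.0577, adjusted p = 0.0771). It passed without EV replicate 4 (−0.18, edgeR adjusted p = 0.0121) and when scaled by library totals (−0.19, adjusted p = 0.0173), as well as by limma on log2 FPKM with a pseudocount of 1 (adjusted p = 0.0309) or 0.1 (0.0316). Its exons overlap 774 bases of the cathepsin gene Ctsb on the opposite strand, which averaged 26710 counts per library against 1520 for Fdft1, so that without a known strand setting its value is uncertain. Sqle, the squalene epoxidase, stood between 105 and 111 CPM in EV and between 92.9 and 101 CPM in KO. Every KO library was lower, by a small margin (log2 fold change −0.16, SE 0.0459, adjusted p = 0.0157). Lss, which closes the sterol rings, fell by 0.20 on the log2 scale (SE 0.0594, adjusted p = 0.0174), from 37.3 ± 1.43 to 32.4 ± 1.19 CPM (SD, n = 4 each). Sqle did not pass without EV replicate 2 (edgeR adjusted p = 0.0552), KO replicate 1 (0.0523) or KO replicate 3 (0.0562), and Lss did not without EV replicate 3 (0.0629) or KO replicate 1 (0.0678).

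The enzymes that turn lanosterol into cholesterol moved in both directions. Msmo1 (ENSMUSG00000031604, chromosome 8, 64718139 to 64733792), the methyl oxidase, stood at 66.2, 64.6, 61.1 and 68.3 CPM in EV and at 42.9, 43.2, 45.0 and 50.8 CPM in KO. The highest KO library lay well below the lowest EV library. Its log2 fold change was −0.51 (SE 0.0612, edgeR adjusted p = 3.50e-06), 30.0% lower. Dhcr7, the reductase of a last step, went from 21.7 ± 2.42 to 16.8 ± 1.25 CPM (SD, n = 4 each; −0.37, SE 0.0884, adjusted p = 0.00426). Cyp51, the lanosterol demethylase, fell by 0.15 on the log2 scale (SE 0.0416, adjusted p = 0.0117). It was among the most steadily measured members, at 162, 162, 156 and 161 CPM in EV and 144, 142, 143 and 149 CPM in KO.

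Nsdhl, the decarboxylating sterol dehydrogenase, and Sc5d, a sterol desaturase, fell by 0.19 (SE 0.0640, edgeR adjusted p = 0.0391) and 0.18 (SE 0.0604, adjusted p = 0.0300) on the log2 scale. Both were near the threshold. For Nsdhl the adjusted p was 0.0698, 0.0643 and 0.0684 with EV replicates 1, 2 and 3 left out in turn, and 0.0601, 0.101 and 0.0920 with KO replicates 1, 2 and 4 left out. For Sc5d the adjusted p was 0.0939 with EV replicate 4 left out, and 0.0849, 0.0513 and 0.0781 with KO replicates 1, 2 and 3 left out in turn. Tm7sf2, a sterol reductase at 7.03 ± 0.643 CPM in EV (SD, n = 4), had a log2 fold change of −0.025 (SE 0.116), and its exons share 532 bases with Vps51 on the same strand. Without EV replicate 3 or KO replicate 4 its sign was positive (0.0014 and 0.030).

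Ebp went against the other enzymes. Ebp (ENSMUSG00000031168, chromosome X, 8185329 to 8193512), the isomerase that moves a ring double bond late in synthesis, stood at 37.5, 38.0, 36.8 and 34.0 CPM across EV libraries in replicate order and at 54.2, 49.4, 54.6 and 49.4 CPM across KO libraries. Every KO library exceeded every EV library by a wide margin. The log2 fold change was 0.51 (SE 0.0601, edgeR adjusted p = 3.50e-06), 1.42-fold higher, close in size to the fall of Msmo1. Hsd17b7, the sterol ketoreductase that acts beside Msmo1 and Nsdhl, stood at 29.4, 30.2, 27.96 and 29.0 CPM in EV and at 32.5, 30.9, 33.0 and 35.8 CPM in KO. The groups did not overlap, but the gap was small (0.18, SE 0.0642, adjusted p = 0.0429). Hsd17b7 did not pass in DESeq2 (adjusted p = 0.0518), with library totals alone (0.144), or with any EV library left out (0.0669, 0.0538, 0.119 and 0.0561 for replicates 1 to 4), or KO replicate 1 (0.0723), 3 (0.0790) or 4 (0.157).

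**Figure D3:**
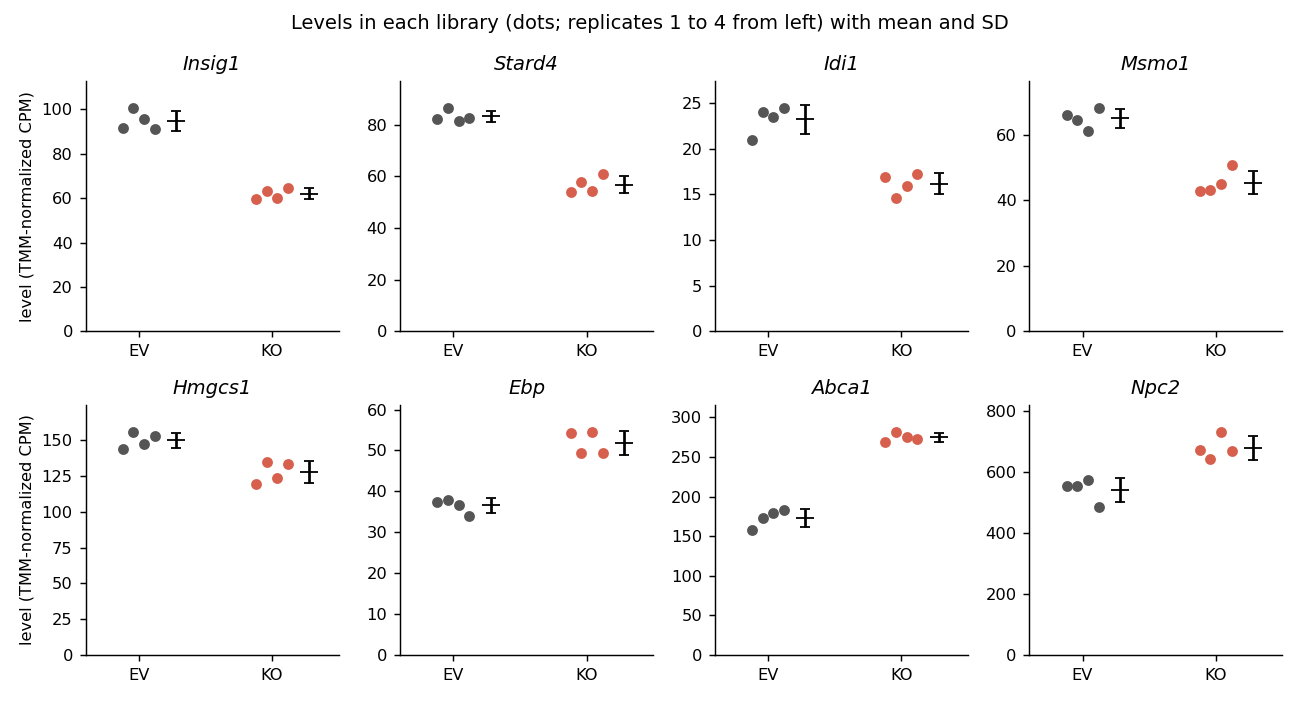
TMM-normalized CPM in each library for 8 sterol genes; dots are replicates 1 to 4 from left to right in EV (grey) and KO (red), with mean and SD over 4 libraries beside them and axes from 0. Insig1, Stard4, Idi1, Msmo1 and Hmgcs1 lie lower and Ebp, Abca1 and Npc2 higher in every KO library than in any EV library.

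Among the regulators, the 2 INSIG genes moved apart. Insig1 (ENSMUSG00000045294, chromosome 5, 28071363 to 28078662), the SREBP-induced retention protein, stood at 91.6, 101, 95.7 and 91.2 CPM across EV libraries in replicate order and at 59.5, 63.4, 60.1 and 64.8 CPM across KO libraries. The groups were far apart against their spread. With a log2 difference of −0.61 (SE 0.0516, edgeR adjusted p = 3.70e-08), 34.7% lower, it was the largest fall among the 30 tested genes. Insig2, a second retention protein not induced by SREBP2 as Insig1 is, stood at 38.0, 41.2, 39.6 and 37.0 CPM in EV and at 43.1, 41.5, 44.9 and 45.1 CPM in KO. The lowest KO library was just above the highest EV library (0.17, SE 0.0581, adjusted p = 0.0430). Insig2 did not pass without EV replicate 1 (adjusted p = 0.0934), 3 (0.0719) or 4 (0.0903), without KO replicate 1 (0.0754), 3 (0.107) or 4 (0.117), or with library totals alone (0.161). Per length, in the authors' FPKM, Insig1 went from 35.8 ± 1.85 to 22.6 ± 0.933 and Insig2 from 14.7 ± 0.746 to 15.9 ± 0.560 (SD, n = 4 each).

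The genes for SREBP and its escort did not pass. Srebf2, which encodes SREBP2, stood at 311, 284, 292 and 281 CPM in EV and at 289, 285, 275 and 283 CPM in KO, with overlapping groups (log2 fold change −0.044, SE 0.0436, edgeR adjusted p = 0.502). Scap, the escort, had a log2 fold change of −0.095 (SE 0.0506, adjusted p = 0.183). Srebf1, an LXR target as well as an SREBP gene, stood at 94.9, 92.5, 86.0 and 77.8 CPM in EV and at 78.9, 79.9, 81.8 and 80.1 CPM in KO. EV replicate 4 was the lowest of all 8 libraries (−0.13, SE 0.0572, adjusted p = 0.105), and without it Srebf1 passed as lower (−0.18, edgeR adjusted p = 0.00636). With library totals alone, Srebf1 (−0.18, adjusted p = 0.0245) and Scap (−0.15, adjusted p = 0.0382) passed as lower too. Counts per gene do not separate the Srebf1 transcripts that start at different promoters.

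Of the 7 genes of transport, efflux and storage, 2 rose, 1 fell, 3 did not pass and 1 was not tested. Over the 6 tested, 33.3% rose and 16.7% fell, against 12.6% and 13.4% of all tested genes. With 6 genes, these shares rest on few values. Abca1 (ENSMUSG00000015243, chromosome 4, 53030787 to 53159895), which loads cholesterol onto apolipoprotein at the cell surface, stood at 157, 172, 179 and 184 CPM across EV libraries in replicate order and at 269, 282, 275 and 272 CPM across KO libraries. No KO library came near the EV range. The log2 fold change was 0.67 (SE 0.0486, edgeR adjusted p = 6.00e-09), 1.59-fold higher. Abcg1, the other LXR-induced exporter, had 1 count in EV replicate 1 and 0 in the other 7 libraries, and no fold can be given. Its level lay under the limit of 3 counts in each library. Mylip was low, at 0.877, 1.18, 0.741 and 1.52 CPM in EV and 1.22, 2.45, 1.85 and 1.75 CPM in KO. The groups overlapped at EV replicate 4 and KO replicate 1 (0.75, SE 0.276, adjusted p = 0.0533). Mylip passed without EV replicate 4 (0.95, edgeR adjusted p = 0.0211) or KO replicate 1 (0.89, adjusted p = 0.0312), with no filter (0.74, adjusted p = 0.0312) and with a filter of 1 CPM (0.75, adjusted p = 0.0470).

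Stard4, a soluble sterol carrier that SREBP induces, moved with the synthesis genes. It stood at 82.2, 86.5, 81.5 and 82.4 CPM in EV and at 53.9, 57.7, 54.1 and 60.8 CPM in KO, with no overlap (−0.55, SE 0.0528, edgeR adjusted p = 1.94e-07). Npc2, the lysosomal protein that hands cholesterol to the membrane protein Npc1, stood at 552, 552, 573 and 483 CPM in EV and at 670, 641, 732 and 668 CPM in KO. Every KO library was higher (0.33, SE 0.0546, adjusted p = 0.000166). Npc1 did not pass, at 71.4 ± 1.63 and 75.9 ± 2.99 CPM (SD, n = 4 each; 0.088, SE 0.0489, adjusted p = 0.204). Soat1, which esterifies cholesterol for storage, stood between 333 and 386 CPM in EV and between 318 and 339 CPM in KO (−0.094, SE 0.0493, adjusted p = 0.177), and with library totals alone it passed as lower (−0.14, adjusted p = 0.0360).

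**Figure D4:**
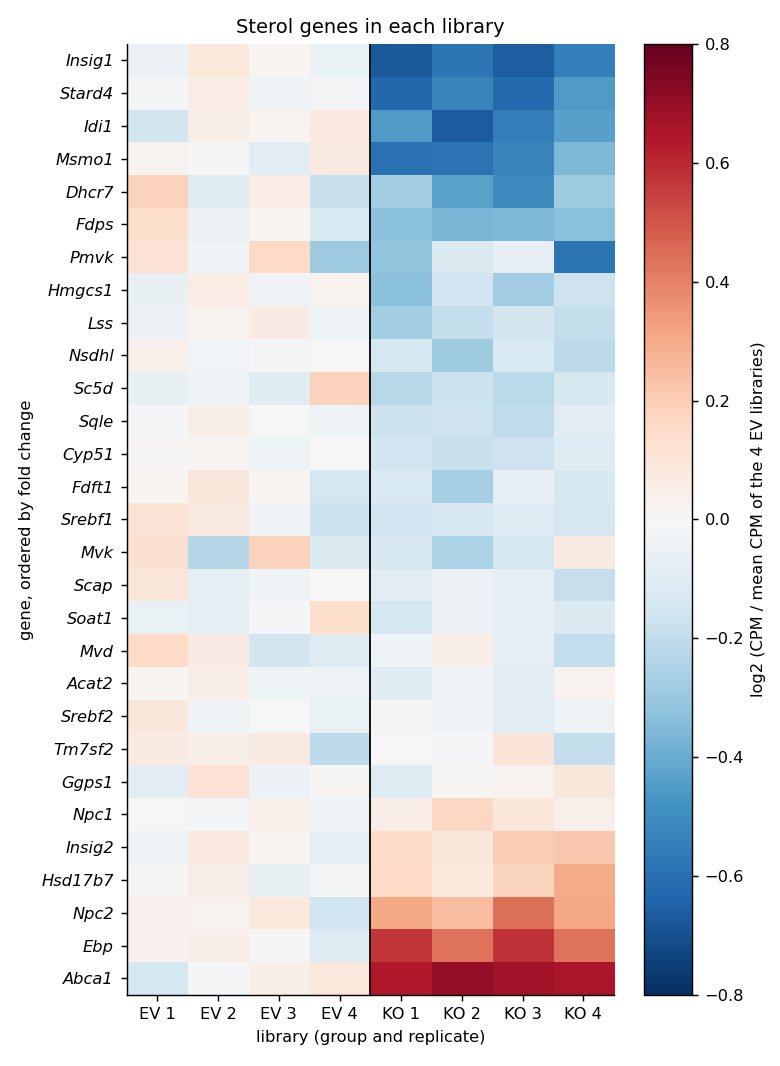
Log2 ratio of each library's CPM to the mean of the 4 EV libraries for 29 sterol genes (all but Abcg1 and Mylip; rows, ordered by fold change from the lowest) in the 8 libraries (columns); blue is lower and red higher. Rows from Insig1 to Cyp51 at the top are blue in all 4 KO libraries, and rows from Insig2 to Abca1 at the bottom are red in all 4.

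The heat map of the libraries shows how alike the KO libraries were. For Insig1, the 4 KO libraries lay within 59.5 to 64.8 CPM, and for Abca1 within 269 to 282 CPM. KO replicate 1 was on the KO side for each of the 17 called genes. Those genes were called with that library placed in KO, so this does not check its label. KO replicates 2 and 3, with the highest hepatocyte sums, lay within the range of KO replicates 1 and 4 for Insig1 and Stard4 and outside it for Idi1, Abca1, Npc2 and Ebp. With both left out, log2 fold changes were −0.61 for Insig1, −0.53 for Stard4, 0.65 for Abca1 and 0.50 for Ebp, and each passed.

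In level per length, the 31 genes spanned a wide range. By the authors' FPKM, Npc2 was the highest in EV at 168 ± 11.8, followed by Srebf2 (59.5 ± 2.36), Fdps (55.4 ± 3.96) and Hmgcs1 (47.2 ± 2.06; SD, n = 4 each). Srebf2 and Fdps lay within their spread of each other, as did Soat1 (42.6 ± 3.02) and Cyp51 (41.5 ± 0.865). Abca1 and Stard4 were close in EV, at 17.2 ± 1.19 and 16.6 ± 0.568 FPKM, and apart in KO, at 26.3 ± 0.586 and 10.9 ± 0.632 FPKM. Msmo1 and Ebp were likewise close in EV, at 22.3 ± 1.101 and 21.3 ± 1.05 FPKM, and stood at 15.03 ± 1.17 and 29.2 ± 1.61 FPKM in KO. The lowest enzymes were Lss (5.42 ± 0.212) and Tm7sf2 (4.77 ± 0.424), and Mylip stood at 0.359 ± 0.117 FPKM. These FPKM values carry no correction for library composition.

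**Figure D5:**
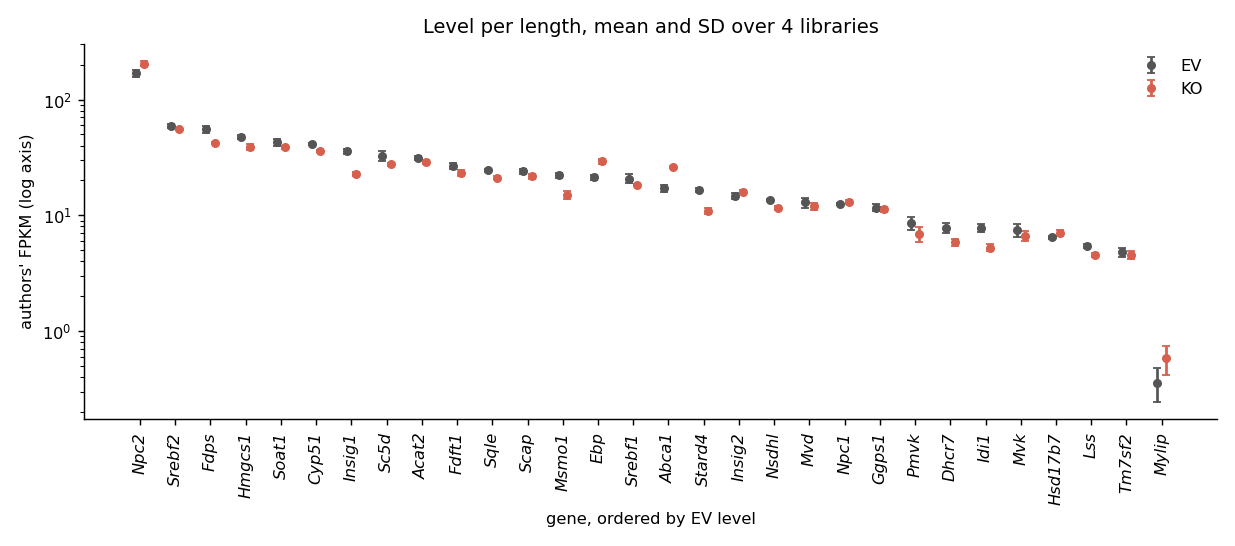
The authors' FPKM (log axis) of 30 sterol genes, ordered by EV level, as mean and SD over 4 libraries in EV (grey) and KO (red); Abcg1 is left out. Npc2 is highest at 168 in EV and Mylip lowest at 0.359, and Insig1, Msmo1, Stard4 and Idi1 lie lower and Ebp and Abca1 higher in KO.

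Beyond the 31 genes, 46 others of SREBP processing, LXR signalling, sterol uptake, trafficking, ester turnover and isoprenoid use were listed, of which 45 were in the table and 40 were tested. Of these, 6 rose and 4 fell, 25.0% in all against 26.0% of all tested genes, with a median log2 fold change of 0.029. Cyb5r3, the cytochrome b5 reductase that supplies electrons to sterol enzymes, went from 474 ± 17.9 to 602 ± 22.3 CPM (SD, n = 4 each; 0.34, SE 0.0449, edgeR adjusted p = 1.12e-05). The lipoprotein receptor gene Lrp1 rose (0.32, SE 0.0515, adjusted p = 0.000105), while Scarb1, the receptor for high-density lipoprotein, fell (−0.28, SE 0.0628, adjusted p = 0.00244). Gramd1b, which carries cholesterol from the plasma membrane to the endoplasmic reticulum, fell (−0.37, SE 0.0578, adjusted p = 8.78e-05), and so did Tmem97, the sigma-2 receptor (−0.28, SE 0.0675, adjusted p = 0.00427). Rxrb, a partner of LXR, rose (0.25, adjusted p = 0.00938), as did the transporter gene Abca5 (0.35, adjusted p = 0.0210) and the sterol-binding protein gene Osbpl5 (0.15, adjusted p = 0.0287).

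Neither SREBP protease gene passed: Mbtps1 and Mbtps2 had log2 fold changes of 0.099 (edgeR adjusted p = 0.0946) and 0.031 (adjusted p = 0.779). The LXR gene Nr1h2 stood at 62.3 and 59.9 CPM (−0.056, adjusted p = 0.554), and Nr1h3 was too low to be tested at 0.442 and 0.385 CPM. Abca5 did not pass without EV replicate 3 or KO replicate 2, with adjusted p up to 0.0691. Osbpl5 did not when EV replicate 2, EV replicate 3, KO replicate 1, KO replicate 3 or KO replicate 4 was left out, with adjusted p up to 0.0862. Neither Rxrb nor Abca5 passed in the limma fits on log2 FPKM or without KO replicates 2 and 3. Osbpl5 failed in those fits too, and also with library totals alone and with no filter. Tmem97 did not pass without KO replicates 2 and 3 (edgeR adjusted p = 0.0990).

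Several members share sequence with other genes. Acat2 is 97.7% identical to Acat3 over 1477 bases, but Acat3 averaged 6.75 counts per library against 1445 for Acat2. A stretch of 445 bases of Acat2 is also 98.7% identical to Tcp1, which averaged 6202 counts, so the value of Acat2 is uncertain. Fdps has several near-identical copies, of which Gm3571 averaged 4 counts against 1280, and Fdps also shares 1124 exon bases with the model Gm43738 on the same strand. Cyp51, Ggps1, Srebf1 and Npc1 overlap exons of Akap9, Arid4b, Rai1 and Rmc1 on the opposite strand, by 166, 257, 109 and 511 bases. Hmgcs1, Idi1, Lss and Scap overlap noncoding gene models on the opposite strand. Without a known strand setting, reads from these stretches cannot be assigned to either gene.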

How the data were processed

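For 35275 genes, the authors deposited unnormalized read counts (whole numbers) together with FPKM. The deposited FPKM values equal counts divided by gene length and library total. The submitters' processing notes name mm10 and DESeq 1.6.3, and the series design text names DESeq2 with an adjusted p of 0.05. The aligner, counter, annotation release and strand setting are not stated in the sources used here.

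Counts were tested with edgeR 4.0.16 (R 4.3.3): TMM, filterByExpr (at least 10 counts and 15 in total), quasi-likelihood F tests and Benjamini-Hochberg adjustment over 12801 genes, with a threshold of 0.05. SE is the absolute log2 fold change over the root of F. Levels are given as CPM after TMM. The fit was tested on simulated data. Replicates differed beyond sampling noise (chi-square over its degrees of freedom between 4.01 and 13.2), and none was counted as a duplicate.

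The members and lists were chosen with earlier results of these data known. Every member is described, with up to 8 called genes of the wider list by smallest adjusted p, and with Hdac3 and Alb. Mbtps1, Mbtps2, Nr1h2 and Nr1h3 fall outside that rule and were named for their role after their values were seen. Overlaps and copies came from GENCODE M21 (same build, BLAST 2.17.0, at least 95% identity over 150 bases), and promoter windows from RefSeq. In the wider list, 1 gene (Faxdc2) matched no row, and Erg28 was matched by an older name. Alternatives were DESeq2 1.42.0, limma-voom (limma 3.58.1), other scaling and filters, limma with FPKM on a log2 scale (pseudocounts of 1 and 0.1), a block for replicate number, omission of single libraries, and KO replicates 2 and 3 left out together.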

Additional observations from a re-analysis of the deposited data

Results flagged for a closer look

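Among 82 groups of 4 libraries (41 genes in 2 groups), 5 held a library far from the other three, and chance alone flags about 1 in 20 such groups. Tm7sf2 was at 6.07 CPM in EV replicate 4 against 7.25 to 7.41 CPM in the other EV libraries. Abcg1 was at 0.0548 CPM in EV replicate 1, which is 1 count, and at 0 elsewhere. Scarb1 was at 45.1 CPM in KO replicate 2 against 50.6 to 51.7 CPM in the other KO libraries. Tmem97 was at 38.2 CPM in KO replicate 4 against 32.4 to 32.7 CPM. Rxrb was at 39.8 CPM in EV replicate 4 against 47.6 to 48.2 CPM.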

How the results depend on the processing

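Of the 17 called sterol genes, 9 (Hmgcs1, Idi1, Fdps, Msmo1, Ebp, Insig1, Stard4, Npc2 and Abca1) kept their direction and stayed past the threshold in all 19 alternatives. With library totals alone and in the 3 FPKM fits (pseudocount 1, pseudocount 0.1, and pseudocount 1 without a filter), 3 sterol genes were higher in each, and 1 SREBP2 target was higher in each, as also in DESeq2 and with no filter. Over all tested genes, the FPKM fits in that order gave 896 higher and 2076 lower, 897 and 2068, and 766 and 1809. DESeq2 gave 1548 higher and 1686 lower, and the fit with no filter gave 1672 and 1865. With library totals alone 1 LXR target was lower. LXR targets higher numbered 2 with no filter, with a filter of 1 CPM and with the replicate block, the added gene being Mylip each time (adjusted p = 0.0341 with the block). In the FPKM fits 2 genes of the wider list were higher in each. The median of the SREBP2 targets was −0.24 with library totals alone and −0.21, −0.23 and −0.21 in the FPKM fits, where the median of all tested genes moved by −0.051, −0.042, −0.047 and −0.015 in the same order. That of the LXR targets was 0.26 with no filter, where Abcg1 entered the test, 0.22 in FPKM with a pseudocount of 1 and 0.11 there without a filter. Without KO replicates 2 and 3, 3 sterol genes were higher and 6 lower, 1 SREBP2 target was higher and 6 lower, 2 genes of the wider list were higher and 2 lower, and the LXR median was 0.47. That fit has fewer samples.

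With 1 library left out, sterol genes higher ranged from 3 to 5 and lower from 8 to 14, SREBP2 targets higher from 1 to 2 and lower from 8 to 13, LXR targets higher from 1 to 2 and lower from 0 to 1, and the wider list from 3 to 6 higher (3 without EV replicate 3) and from 3 to 4 lower. In these fits, between 20.2% (without KO replicate 1) and 25.9% (without EV replicate 1) of all tested genes were called. With every library kept, 26.0% were called. The SREBP2 median ranged from −0.19 to −0.15 and the LXR median from 0.58 to 0.70. Fits that turned sign were of genes that did not pass. Ggps1 was at −0.043 with library totals alone, −0.039, −0.042 and −0.039 in the FPKM fits and −0.0018 without KO replicates 2 and 3, and ranged from −0.024 to 0.049 with 1 library left out. Tm7sf2 ranged from −0.089 to 0.030 there and Hdac3 from −0.023 to 0.032, with Hdac3 at 0.024 without KO replicates 2 and 3. The causes were not tested. Nothing in the labels says that libraries with the same replicate number were paired, and whether they were is not known. Deviations of same-numbered libraries correlated from −0.034 to 0.12. Of the 4 EV libraries, 3 correlated best with the KO library of their own number. With the number as a replicate block, 6 sterol genes were higher and 12 lower, and 2 SREBP2 targets were higher and 12 lower. In that fit 29.2% of all tested genes were called. Depth limits Abcg1, which lay under the limit that 3 counts set. Mylip was low but above that limit, at 16 to 50 counts per library.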
